A study of Mus musculus with 6 samples.

Results

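The genes described here are the 4 muscle actins (Acta1, Actc1, Acta2 and Actg2), 3 genes used as markers of smooth muscle (Tagln, Cnn1 and Myh11), the tropomyosins Tpm1 and Tpm2, and Srf, which encodes serum response factor. They were selected by gene symbol, and all 10 were found among the 54834 genes of the deposited expression table. RNA-seq was performed on mouse primary myoblasts, the proliferating progenitors of skeletal muscle, grown from satellite cells sorted from animals carrying the Pax7-ZSGreen reporter. The question was how long-term low oxygen and HIF-2α, an oxygen-regulated transcription factor, bear on gene expression in these cells.

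All cells had the Pax7-ZSGreen genotype, were kept in growth medium and had been adapted for weeks to their oxygen level. The levels were 20% pO2 (called normoxia), 4% pO2 (mild hypoxia) and 1% pO2 (severe hypoxia). At each level, cells received either 1 µM PT2385, an inhibitor of HIF-2α, or the vehicle, 0.1% DMSO, for 48 h. Each of the 6 conditions was represented by 1 library made from pooled cultures, so no condition has a spread between replicates. Pooled RNA from a bulk culture cannot show whether a lower value came from fewer cells expressing a gene or from less RNA per cell.

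Actins polymerise into the thin filaments that myosin pulls on. Acta1 and Actc1 encode the skeletal and cardiac forms of the sarcomere, with Actc1 also used in immature skeletal muscle, and Acta2 and Actg2 encode the vascular and enteric smooth muscle forms. Acta2 is also expressed by cultured myoblasts and by contractile fibroblasts. The actin-bundling transgelin (Tagln), calponin 1 (Cnn1) and smooth muscle myosin heavy chain (Myh11) are typical of differentiated smooth muscle, whereas tropomyosins lie along actin filaments in muscle and other cells. Many of these genes are classical targets of serum response factor, which binds the CArG box and works either with myocardin-related cofactors, which sense free actin, or with ternary complex factors of the ETS family.

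The coding sequences of the muscle actins are alike, which bears on how reads can be assigned to them. Among the 4 muscle actins, coding sequences of the GENCODE M21 transcripts (taken as the longest open reading frame) were identical at between 82.5% of bases, for Actc1 with Acta2, and 86.2%, for Acta1 with Actc1. A stretch of 90 bases is shown for each, aligned from the stop codon, with capitals at the 21 positions where the 4 genes are not all alike. It starts at coding base 61 in Acta1, Actc1 and Acta2 and at coding base 58 in Actg2, whose coding sequence is 3 bases shorter (1131 against 1134).
Acta1: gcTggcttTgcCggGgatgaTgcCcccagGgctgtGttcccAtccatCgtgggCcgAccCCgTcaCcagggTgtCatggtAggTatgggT
Actc1: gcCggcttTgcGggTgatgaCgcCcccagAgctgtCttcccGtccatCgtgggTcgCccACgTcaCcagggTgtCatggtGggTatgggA
Acta2: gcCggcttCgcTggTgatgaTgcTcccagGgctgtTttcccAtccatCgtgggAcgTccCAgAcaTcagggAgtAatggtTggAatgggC
Actg2: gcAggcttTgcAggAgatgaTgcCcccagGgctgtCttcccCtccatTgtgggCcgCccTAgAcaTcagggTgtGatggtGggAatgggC
In this stretch Actc1 differed from Acta1 at 12 positions, Acta2 at 16 and Actg2 at 15. Over whole transcripts, 1.83% of the 50-base stretches of Acta1 and 0.326% of those of Acta2 occurred in another actin gene (Actb and Actg1 included), and 0 of those of Actc1 and Actg2 did. No 100-base stretch was shared by any of these 6 actin genes. Of the 50-base stretches of Actb and Actg1, 2.21% and 1.56% occurred in another actin gene. Among the muscle actins, reads could therefore be shared over a small part of Acta1 and Acta2 at most. This does not hold for reads shorter than 50 bases or aligned with mismatches.

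The CArG box is a run of 10 bases made of 2 C, 6 A or T and 2 G. Promoters running from 250 bases before to 50 bases after the RefSeq start (GRCm38.p6) were matched for 7 of the 10 genes (Acta1, Actc1, Acta2, Cnn1, Tpm1, Tpm2 and Srf). They were searched on both strands, allowing either an exact CArG box or 1 C or G among the 6 middle bases. The promoter stretches from 110 to 31 bases before the start are shown for the 3 genes with an exact box, with exact and 1-departure boxes in capitals, at chr8:123894806-123894885 for Acta1, chr2:114052906-114052985 for Actc1 and chr17:46556193-46556272 for Srf, all on the minus strand and outside annotated exons.
Acta1: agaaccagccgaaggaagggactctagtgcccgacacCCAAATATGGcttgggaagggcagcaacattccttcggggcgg
Actc1: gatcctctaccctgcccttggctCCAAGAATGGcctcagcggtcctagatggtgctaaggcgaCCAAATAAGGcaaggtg
Srf: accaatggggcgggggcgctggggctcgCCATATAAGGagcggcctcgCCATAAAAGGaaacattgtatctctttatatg
Acta1 and Actc1 each had 1 exact box, starting 73 and 47 bases before the start, and Srf had 2, starting 82 and 62 bases before it. Acta1 had 2 further boxes with 1 departure and Actc1 had 3. Acta2 had no exact box but 2 with 1 departure, printed here with 10 bases on each side. GENCODE M21 places both inside an annotated exon of Acta2, although they lie 84 and 34 bases before the RefSeq start.
Acta2, first box: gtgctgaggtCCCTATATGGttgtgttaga
Acta2, second box: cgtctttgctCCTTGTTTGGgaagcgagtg
The Cnn1, Tpm1 and Tpm2 windows held no box of either kind. Over all 32851 promoters of the table, 1.63% held an exact box and 9.98% held an exact box or one with 1 departure. The sequence ACGTG or GCGTG, the core of sites bound by hypoxia-inducible factors, was found once each in the windows of Acta1, Tpm1 and Srf and 2 times in that of Cnn1, on either strand, and in 43.8% of all promoters. These matches describe the letters in the windows only.

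Expression is given as FPKM, a fragment count scaled to transcript length and to library size, so levels of different genes can be set side by side. The spacing of low values put the depth at an estimated 19.9 to 23.3 (in units of 1e6 fragments) per library. Differences are on the log2(FPKM + 1) scale and were taken over the 11967 genes that averaged 1 FPKM or more, as 7 of the 10 genes did, Actg2, Cnn1 and Myh11 being too low. A fold change on this scale is smaller than the fold of the FPKM values for low genes. Genes were called by either of these criteria, a difference of 2-fold (1 on the log2 scale) in every library pair, and an adjusted p under 0.05 from limma, fitted with oxygen level and treatment as terms over all 6 libraries. The only spread available to limma was how unequal the PT2385 difference was across the oxygen levels, on 2 residual degrees of freedom. Its p-values therefore do not measure variation between cultures.

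The labels were checked against marker genes. All 6 hypoxia genes checked, among them Car9 and Pdk1, were over 2-fold higher in every pair of 4% or 1% and 20% libraries. Summed myoblast markers (Myod1, Pax7 and 6 others) were between 938.1 and 1049 FPKM in the 4 hypoxic libraries, against 1578 and 1552 FPKM in the normoxic libraries. Most of that sum was Myod1. Of the 7 tested, limma called 7 lower at 4% against 20% pO2 and 6 at 1%, beside 22.7% and 21.9% of all genes. Endothelial markers summed to at most 1.09 FPKM. The 8 fibroblast markers summed to 6.39 and 5.64 FPKM at 4% pO2 and 13.9 and 13.4 FPKM at 1% pO2 (PT2385 and vehicle), against 3.61 and 2.51 FPKM in normoxia. The 2 of them that were tested, Ly6a and Cd34, were called higher by limma at both hypoxic levels against normoxia. Of all genes, 27.5% were called higher at 4% pO2 and 25% at 1% pO2. Lum and Tcf21 were listed at 0 in all libraries. Summed immune markers were 103.2 and 93.6 FPKM at 4% pO2 and 22.8 and 20.6 FPKM at 1% pO2 (PT2385 and vehicle), against 4.99 and 4.37 FPKM in normoxia, mostly from Laptm5 and Cd68, while Adgre1 and Itgam were listed at 0 throughout. What these markers contribute to the differences below was not tested.

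Across the 10 genes, levels spanned from nearly absent to among the most abundant transcripts. In the normoxic vehicle library, Tpm1 was at 876.1 FPKM, followed by Tpm2 at 254.8 and Acta2 at 239.8. Srf followed at 55.4 FPKM, then Actc1 at 20.4, Tagln at 11.4, Acta1 at 9.71 and Actg2 at 1.27. Cnn1 and Myh11 were listed at 0. The order was not the same in hypoxia: in the 4% vehicle library Acta1 was above Actc1 and Tagln, with values of 40.2, 24.9 and 3.27 FPKM, and Acta2, at 46.1 FPKM, was below Srf, at 51.8. Without replicates, whether neighbours in this order differ beyond culture variation cannot be told.

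**Figure D1:**
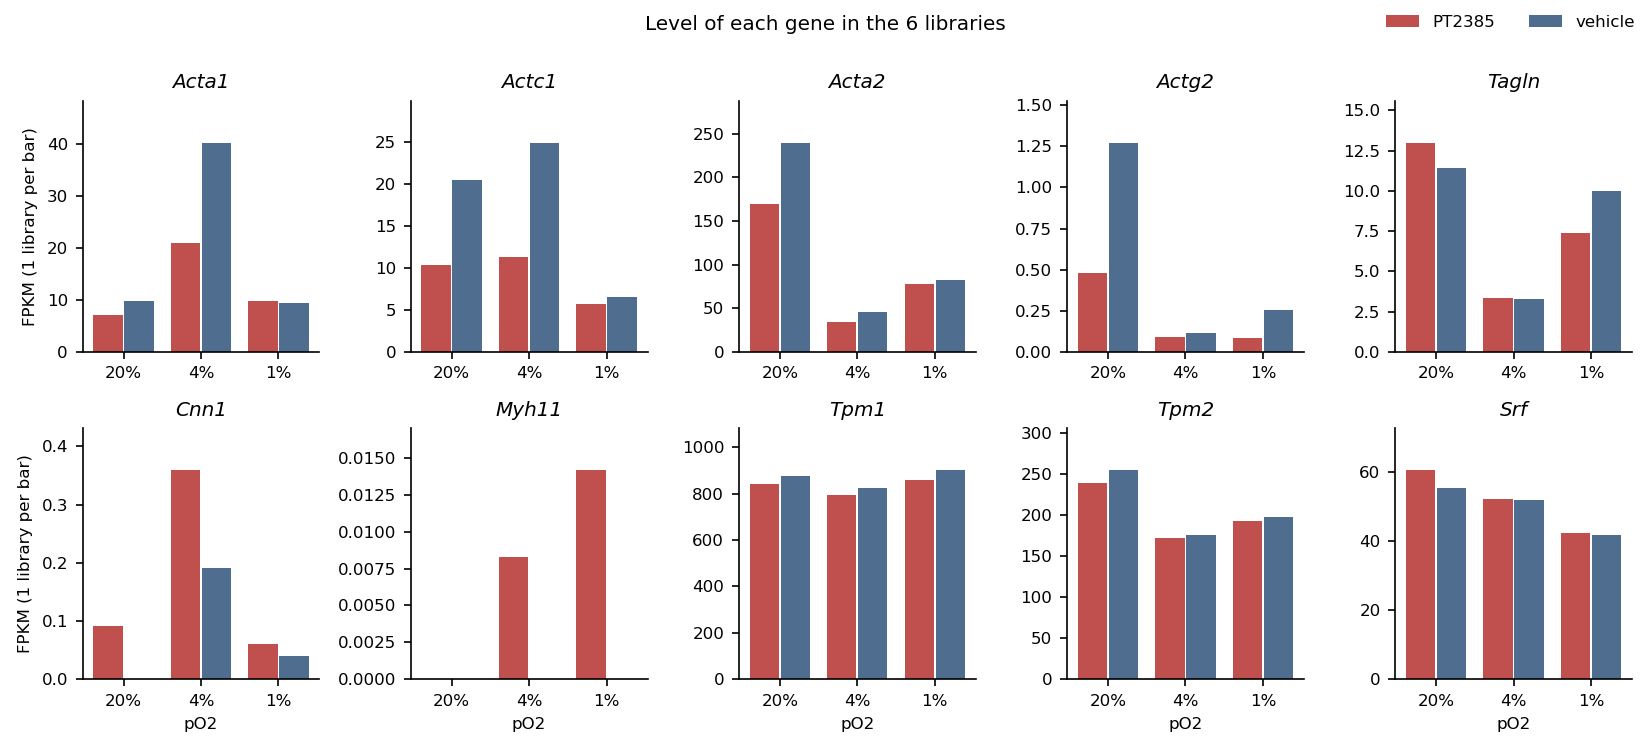
FPKM of each gene (1 panel per gene, each with its own axis from 0) by pO2, with 1 bar per library, PT2385 in red and vehicle in blue. Acta2 and Tagln were lowest at 4% pO2, Acta1 was highest there, and Tpm1 stayed between 796.0 and 902.0 FPKM.

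Myh11 and Cnn1, markers of differentiated smooth muscle, were almost absent, and the label smooth muscle is used here for the genes only. Myh11 was listed at 0 in 4 of the 6 libraries and reached 0.0142 FPKM, in the 1% PT2385 library. Cnn1 was highest at 4% pO2, with 0.359 FPKM under PT2385 and 0.191 FPKM under vehicle, and was at 0.0605 and 0.0400 FPKM at 1% pO2 under PT2385 and vehicle. In normoxia Cnn1 was at 0.0920 FPKM under PT2385 and listed at 0 under vehicle. On its longest transcript these values correspond to about 16 and 10 fragments at 4% pO2 and to 5 or fewer in every other library. The ratio of 4% to 20% pO2 under PT2385 was 3.67 (exact binomial 95% interval of the fragment ratio 1.28 to 12.8, for counting error only).

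Myocd, Lmod1 and Kcnmb1, picked after their values were seen, were low as well, so they do not settle what the cells are. Myocd, encoding the smooth muscle and heart cofactor myocardin, was at 0.25 FPKM at most, Lmod1, encoding the actin nucleator leiomodin 1, was at 0.07 at most, and Kcnmb1, a smooth muscle potassium channel subunit, was listed at 0 in every library. Other contractile genes expressed by smooth muscle were not low. Among them were Myl9, a myosin light chain, at 56.5 to 113.9 FPKM, Smtn, at 27.1 to 52.9 FPKM, and Synpo2, at 10.1 to 26.3 FPKM. Pericyte and vascular smooth muscle markers summed to 47.1 FPKM or less and were mostly Rgs5. They were at 40.1 and 47.1 FPKM at 4% pO2 and 43.1 and 46.7 FPKM at 1% pO2 (PT2385 and vehicle), against 23.7 and 26.4 FPKM in normoxia. The tested markers did not go one way. At 4% against 20% pO2, limma called Rgs5 and Notch3 higher and Pdgfrb lower, as Acta2 was. Pdgfrb was at 0.745 and 0.677 FPKM at 4% pO2 and 0.774 and 0.894 FPKM at 1% pO2, against 1.53 and 1.52 FPKM in normoxia. The part of these markers in the results was not tested.

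Actg2 was detected mainly in normoxia. Its level was 0.0908 FPKM under PT2385 and 0.117 under vehicle at 4% pO2, and 0.0810 and 0.256 FPKM at 1% pO2, against 0.482 and 1.27 FPKM in normoxia. The normoxic vehicle library stood above the rest. On the longest of its 6 annotated transcripts these values correspond to about 2 and 3 fragments at 4% pO2, 2 and 7 at 1% pO2, and 13 and 34 in normoxia. The vehicle ratio to normoxia was 0.0864 at 4% pO2 (95% interval 0.0170 to 0.275) and 0.208 at 1% pO2 (0.0777 to 0.476), and the PT2385 ratios were 0.176 (0.0193 to 0.779) and 0.157 (0.0172 to 0.692). These intervals lay below 1, and they cover counting error only. On the shortest transcript, an alternative chosen after the data were seen, the fragments are fewer, and the vehicle intervals still lay below 1 (0.00165 to 0.460 and 0.0398 to 0.774), whereas the PT2385 intervals did not (0.00415 to 1.58 and 0.00369 to 1.40).

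Acta2, which had the highest level of the 4 muscle actins in every library, showed the largest oxygen difference of the 7 genes tested. At 4% pO2 it was at 34.0 FPKM under PT2385 and 46.1 under vehicle, and at 1% pO2 at 78.3 and 82.5 FPKM, against 169.2 and 239.8 FPKM in normoxia. Every hypoxic library was below both normoxic ones, and both 4% libraries were below both 1% libraries. The differences between 4% and 20% pO2 were −2.28 under PT2385 and −2.35 under vehicle on the log2 scale, lower than all but 0.627% and 0.669% of the genes tested. The limma estimate was −2.32 ± 0.107 (SE, adjusted p = 0.000136). For 1% against 20% pO2 the pair differences were −1.10 and −1.53, with an estimate of −1.31 (adjusted p = 0.000762). The level at 1% pO2 was higher than at 4% by 1.18 and 0.83, with an estimate of 1.00 (adjusted p = 0.00239). Acta2 thus had its lowest level under mild, not severe, hypoxia.

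Tagln had the same order of oxygen levels, with smaller differences. It was at 3.34 FPKM under PT2385 and 3.27 under vehicle at 4% pO2, and at 7.35 and 9.99 FPKM at 1% pO2, against 13.0 and 11.4 FPKM in normoxia. The 3 levels did not overlap, although the vehicle library at 1% pO2 was close to that of normoxia. The 4% to 20% pO2 differences were −1.69 and −1.54, lower than all but 1.24% and 1.5% of genes, with a limma estimate of −1.61 ± 0.150 (adjusted p = 0.000974). For 1% against 20% pO2 the differences were −0.74 under PT2385 and −0.17 under vehicle, and the estimate of −0.46 did not pass (adjusted p = 0.0559). It passed without the 1% vehicle library, at −0.71 (adjusted p = 0.0292). The 1% libraries were above the 4% libraries by 0.95 and 1.36, with an estimate of 1.15 (adjusted p = 0.00413). The sister gene Tagln2 made up 97.4% to 99.0% of the summed transgelin FPKM in each library, so Tagln was a minor form throughout.

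Acta1, the skeletal muscle actin, went in the opposite direction to Acta2 at 4% pO2. It was at 20.9 FPKM under PT2385 and 40.2 under vehicle at 4% pO2, and at 9.73 and 9.38 FPKM at 1% pO2, against 7.07 and 9.71 FPKM in normoxia. The 4% libraries were above all others, whereas those at 1% and 20% pO2 overlapped. The 4% to 20% pO2 differences were 1.44 and 1.94, higher than 96.2% and 97.8% of genes, with an estimate of 1.69 ± 0.219 (adjusted p = 0.00275). For 1% against 20% pO2 they were 0.41 and −0.04 (estimate 0.18, adjusted p = 0.528). For 1% against 4% pO2 they were −1.03 and −1.99, with an estimate of −1.51 (adjusted p = 0.00564).

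Actc1, the cardiac actin, separated 1% pO2 from the other levels. It was at 11.3 FPKM under PT2385 and 24.9 under vehicle at 4% pO2 and at 5.66 and 6.56 FPKM at 1% pO2, against 10.3 and 20.4 FPKM in normoxia. Both 1% libraries were below all others, and the 4% and 20% libraries were ordered by treatment and not by oxygen. The 4% to 20% pO2 differences were 0.12 and 0.27 (estimate 0.20, adjusted p = 0.494). For 1% against 20% pO2 they were −0.76 and −1.50, with an estimate of −1.13 (adjusted p = 0.0111), a call that was lost without either normoxic library (adjusted p = 0.0636 without the PT2385 library and 0.106 without the vehicle library). For 1% against 4% pO2 they were −0.88 and −1.77, with an estimate of −1.33 (adjusted p = 0.00823, and 0.0524 without the 4% vehicle library).

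The makeup of the muscle actin pool differed accordingly. Summed over the 4 genes, muscle actins were at 66.2 FPKM under PT2385 and 111.2 under vehicle at 4% pO2 and at 93.8 and 98.7 FPKM at 1% pO2, against 187.0 and 271.2 FPKM in normoxia. Acta2 made up 51.3% and 41.4% of that sum at 4% pO2 and 83.5% and 83.6% at 1% pO2, against 90.5% and 88.4% in normoxia. Acta1 made up 31.6% and 36.1% at 4% pO2 and 10.4% and 9.50% at 1% pO2, against 3.78% and 3.58% in normoxia. Mild hypoxia was thus the one level at which the sarcomeric forms approached or exceeded Acta2 in sum, and at 1% pO2 Acta2 again made up most of a smaller pool. Against the cytoplasmic actins the muscle forms were minor: Actb and Actg1 held 62.6% to 66.4% and 30.6% to 32.6% of the summed FPKM of the 6 actins. Acta2 held 0.853% and 1.26% at 4% pO2 and 1.88% and 2.1% at 1% pO2, against 3.78% and 5.66% in normoxia (PT2385 and vehicle).

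**Figure D2:**
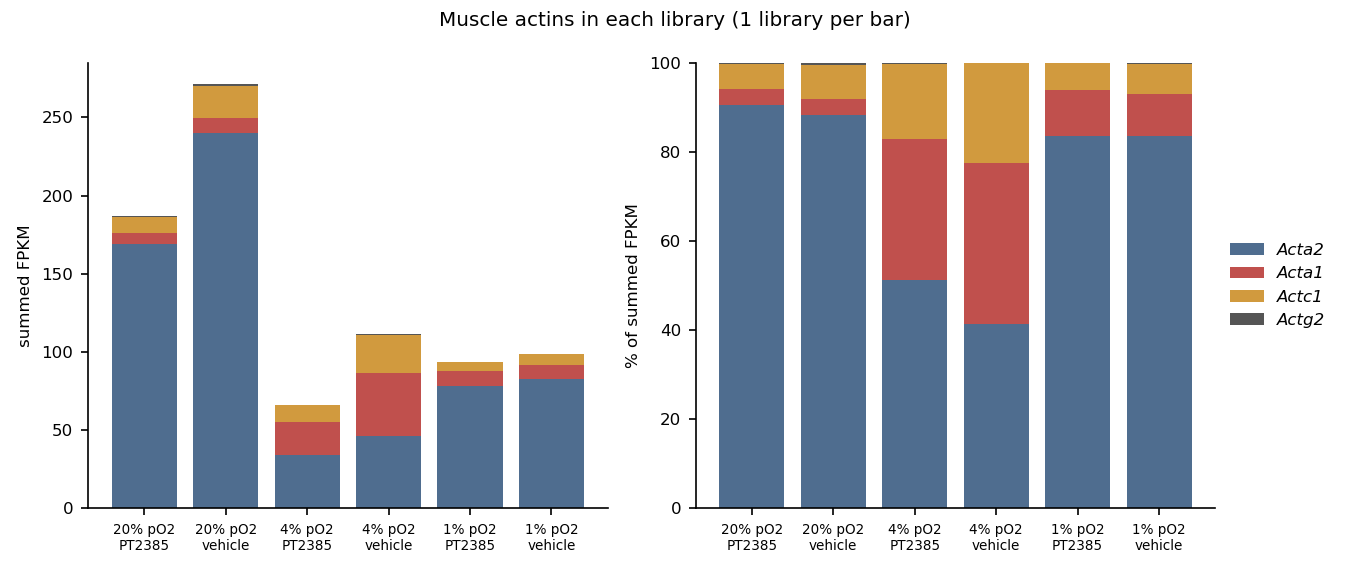
Summed FPKM of Acta1, Actc1, Acta2 and Actg2 (left) and each gene's percentage of that sum (right), 1 bar per library. Acta1 made up 31.6% and 36.1% of the sum in the 4% libraries and 10.4% or less in the others.

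Of the tropomyosins, Tpm1 varied little and Tpm2 varied more. Tpm1, which is spliced into muscle and non-muscle forms, was at 796.0 and 825.3 FPKM at 4% pO2 and 861.2 and 902.0 FPKM at 1% pO2 (PT2385 and vehicle), against 843.8 and 876.1 FPKM in normoxia. Its highest library was 1.13-fold above its lowest, and the table does not resolve the splice forms. Tpm2, encoding β-tropomyosin, was at 171.7 and 175.1 FPKM at 4% pO2 and 192.9 and 197.9 FPKM at 1% pO2, against 238.8 and 254.8 FPKM in normoxia. The 3 oxygen levels of Tpm2 did not overlap. Its difference between 4% and 20% pO2 was −0.51 ± 0.037 by limma (SE, adjusted p = 0.000449) and that between 1% and 20% pO2 was −0.33 (adjusted p = 0.00184). For Tpm1 the estimates were −0.08 (adjusted p = 0.0584) and 0.04 (adjusted p = 0.353). For 1% against 4% pO2, both genes were called higher, by 0.12 for Tpm1 (adjusted p = 0.0243) and 0.17 for Tpm2 (adjusted p = 0.0181), but neither call held with all libraries rescaled to the same sum (adjusted p = 0.107 and 0.0535). Tpm2 made up 10.2% and 10.3% of the summed tropomyosin FPKM at 4% pO2 and 10.5% and 10.6% at 1% pO2, against 13.0% and 13.9% in normoxia.

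Srf itself was at 52.2 FPKM under PT2385 and 51.8 under vehicle at 4% pO2 and at 42.2 and 41.7 FPKM at 1% pO2, against 60.5 and 55.4 FPKM in normoxia. Its order, with the lowest level at 1% pO2, was not that of Acta2 or Tagln. The limma estimate for 1% against 20% pO2 was −0.45 ± 0.0518 (adjusted p = 0.00201) and that for 4% against 20% pO2 was −0.15 (adjusted p = 0.0604). For 1% against 4% pO2 it was −0.30 (adjusted p = 0.00903), a call lost without the 1% PT2385 library (adjusted p = 0.0718), the 1% vehicle library (0.0511) or the 4% vehicle library (0.0548).

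**Figure D3:**
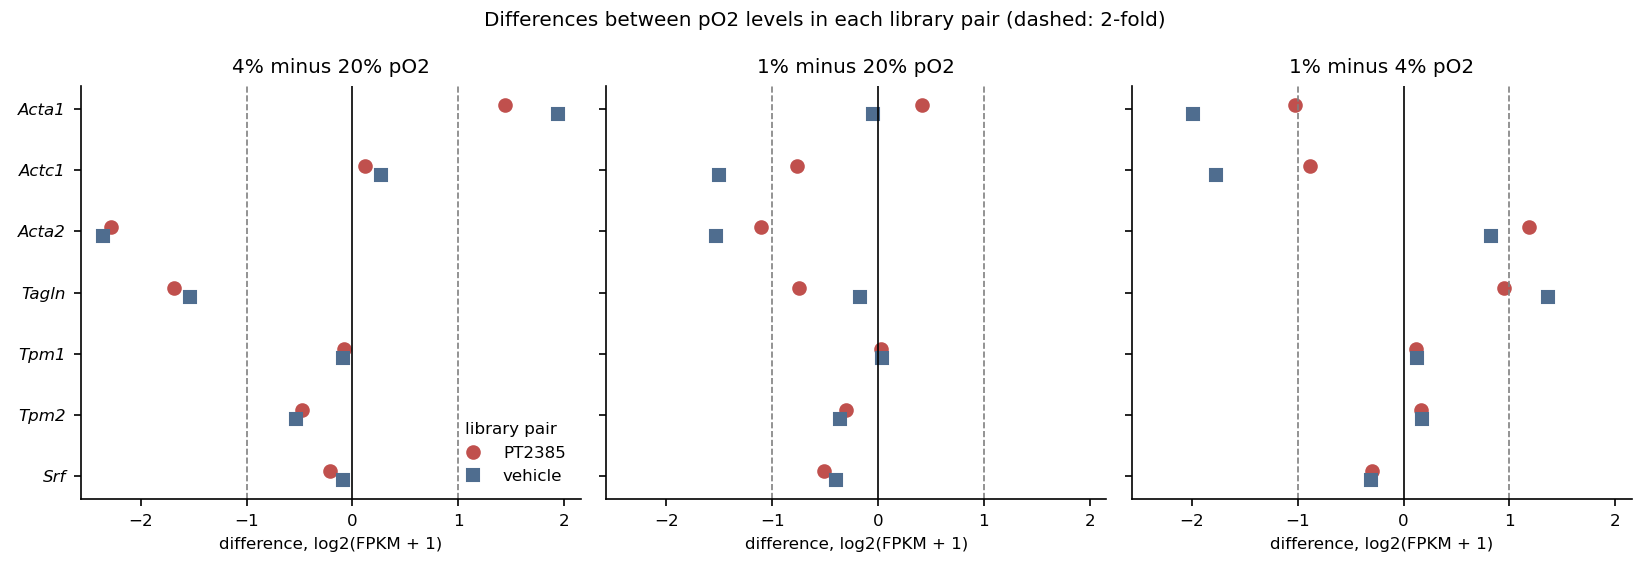
Differences in log2(FPKM + 1) between pO2 levels for the 7 genes that averaged 1 FPKM or more, with 1 point per library pair (red circles for PT2385, blue squares for vehicle) and dashed lines at 2-fold. Acta2 and Tagln lie left of −1 and Acta1 right of 1 for 4% minus 20% pO2 in both pairs.

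Counted over the 7 tested genes, 1 was 2-fold higher (Acta1) and 2 were 2-fold lower (Acta2 and Tagln) in both pairs at 4% against 20% pO2, where 5.62% of all genes were higher and 2.11% lower by the same criterion. At 1% against 20% pO2, 1 of 7 was 2-fold lower (Acta2) and 0 were higher, against 1.3% and 5.26% of all genes. At 1% against 4% pO2, 1 of 7 was lower (Acta1) and 0 were higher, against 1.7% and 1.96%. By limma, 4 of 7 were called at 4% against 20% pO2 (1 higher, 3 lower), where 50.2% of all genes were called (27.5% higher, 22.7% lower), and 4 of 7 at 1% against 20% pO2 (0 higher, 4 lower), where 46.9% were (25% higher, 21.9% lower). All 7 were called at 1% against 4% pO2 (4 higher, 3 lower), where 43% of all genes were (20.7% higher, 22.3% lower), and 3 to 6 of 7 when a library was left out. Fewer were also called at 1% against 4% pO2 with all libraries rescaled to the same sum or without the variance trend (2 higher, 3 lower in each). With no filter on low values, 3 of the 10 genes were called higher and 2 lower there. At 1% against 20% pO2, 0 were then called higher and 3 lower. With both directions counted together, the limma shares at both hypoxic levels against normoxia were thus near those of all genes. The shares called lower were above those of all genes at both levels, over only 7 genes. The median difference of the 7 genes at 4% against 20% pO2 was −0.21 under PT2385 and −0.09 under vehicle, and that of all genes was 0.02 in both pairs. At 1% against 20% pO2 the medians of the 7 genes were −0.51 and −0.36, and those of all genes 0.00 and 0.01.

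PT2385 changed none of the 7 genes past the threshold. Limma called 0 of 7 and 0 of all 11967 genes (0%) at an adjusted p under 0.05, with 2 of the 7 and 1454 of all genes at an unadjusted p under 0.05. No gene of the 7 was 2-fold higher or lower in all 3 pairs, and 0.00836% and 0.0167% of all genes were. An exact sign-flip test over 3 pairs cannot give a two-sided p below 0.25. By direction, 4 of the 7 (Actc1, Acta2, Tpm1 and Tpm2) were lower with PT2385 in all 3 pairs and 1 (Srf) was higher, against 18.4% and 18.9% of all genes.

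Among these, the actins had the largest differences. Actc1 with PT2385 was at 10.3 FPKM in normoxia, 11.3 at 4% pO2 and 5.66 at 1% pO2, against 20.4, 24.9 and 6.56 FPKM with vehicle at the same levels. That is 0.504, 0.453 and 0.862 of the vehicle level, with log2 differences of −0.92, −1.08 and −0.18. In normoxia and at 4% pO2, 0.384% and 0.401% of genes had a lower difference. The average was −0.73 ± 0.179 (SE, limma adjusted p = 0.367).
For Acta2 the differences were −0.50, −0.43 and −0.08 at 20%, 4% and 1% pO2, and the average was −0.33 ± 0.0876 (adjusted p = 0.367). For Acta1 they were −0.41, −0.91 and 0.05, with an average of −0.42 (adjusted p = 0.421). All 3 actins thus had their smallest difference at 1% pO2, and Acta1 had no common direction. For Tagln the differences were 0.17, 0.02 and −0.40, also without a common direction. For Tpm1, Tpm2 and Srf they were between −0.09 and 0.13. The PT2385 to vehicle ratio of Actg2 in normoxia was 0.382 (95% interval 0.185 to 0.743, from about 13 and 34 fragments on the longest transcript, counting error only, and 0.135 to 1.19 on the shortest), and those at 4% and 1% pO2 had intervals spanning 1.

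**Figure D4:**
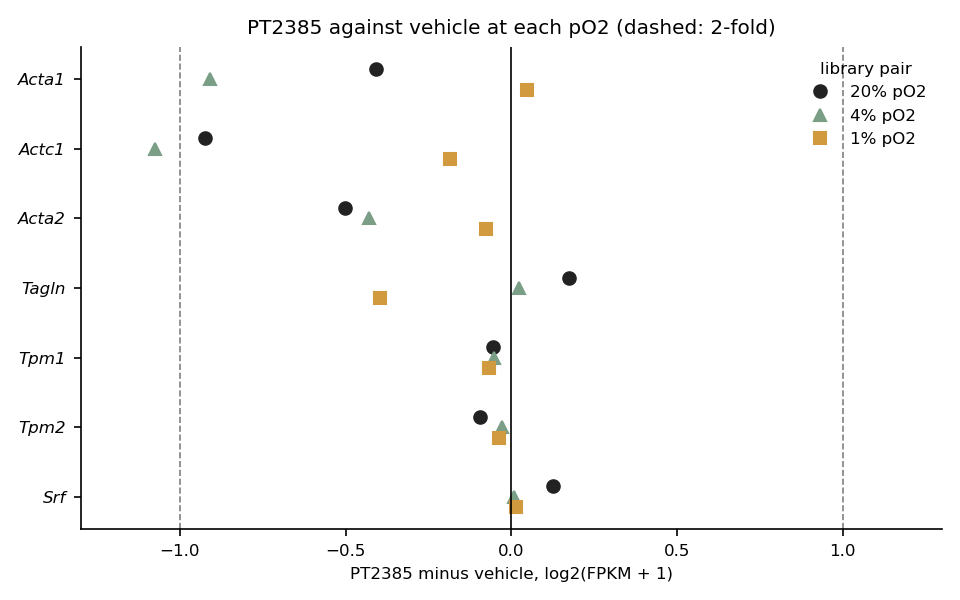
PT2385 minus vehicle in log2(FPKM + 1) for the 7 genes at each pO2 (black circles 20%, green triangles 4%, orange squares 1%), 1 library pair per point, with dashed lines at 2-fold. Acta1, Actc1 and Acta2 lie left of 0 at 20% and 4% pO2 and nearer to 0 at 1% pO2.

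Other genes of muscle differentiation were followed beside the sarcomeric actins. Of 20 such genes, 17 were tested. For all the lists that follow, the shares of all genes called by limma were 27.5% higher and 22.7% lower at 4% against 20% pO2, and 25% higher and 21.9% lower at 1% against 20% pO2. At 4% against 20% pO2, limma called 9 of the 17 higher and 1 lower, with a median difference of 0.68 under PT2385 and 0.87 under vehicle, and at 1% against 4% pO2 it called 0 higher and 10 lower, beside 20.7% and 22.3% of all genes. At 1% against 20% pO2 it called 2 higher and 2 lower. Mylpf, a fast skeletal myosin light chain, was at 16.0 and 27.1 FPKM at 4% pO2 and 10.3 and 14.0 FPKM at 1% pO2 (PT2385 and vehicle), against 8.73 and 13.4 FPKM in normoxia. Mymk, the membrane protein needed for myoblast fusion, was at 4.96 and 9.40 FPKM at 4% pO2 and 5.38 and 5.74 at 1% pO2, against 2.40 and 4.35 FPKM in normoxia. The troponin T genes were not alike. Tnnt3 was highest at 4% pO2, as Acta1 was, with 13.3 and 17.2 FPKM at 4% pO2 and 9.64 and 9.25 FPKM at 1% pO2, against 7.71 and 8.96 FPKM in normoxia. By contrast, Tnnt1 was at 28.0 and 34.3 FPKM at 1% pO2, against 118.8 and 181.6 FPKM in normoxia, and Tnnt2 at 145.6 and 142.0 FPKM, against 64.1 and 57.6 FPKM.
With PT2385, 9 of the 17 were lower in all 3 pairs and 0 were higher, beside 18.4% and 18.9% of all genes, with medians of −0.57, −0.66 and −0.05 at 20%, 4% and 1% pO2, although none was called. Myog, the transcription factor that drives terminal differentiation, was at 8.56 FPKM with PT2385 and 17.4 with vehicle in normoxia, at 14.3 and 16.8 FPKM at 4% pO2, and at 11.2 and 9.43 FPKM at 1% pO2. The list's median, like Acta1 and Actc1, was nearest to 0 at 1% pO2, but Myog did not follow it. Whether the cultures differed in the number of differentiating cells was not tested.

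No cofactor of serum response factor was called lower in hypoxia against normoxia. Of 6 genes, 5 were tested, and limma called 3 higher and 0 lower at 4% against 20% pO2 and 2 higher and 0 lower at 1%. At 1% against 4% pO2 it called 0 higher and 2 lower, Mkl1 at −0.77 and Elk1 at −0.43, beside 20.7% and 22.3% of all genes. Mkl1, encoding the actin-sensing cofactor MRTF-A, was at 27.5 FPKM under PT2385 and 27.2 under vehicle at 4% pO2 and at 15.7 and 15.6 FPKM at 1% pO2, against 11.1 and 10.6 FPKM in normoxia. Its highest level was thus at the oxygen level where Acta2 and Tagln were lowest. Elk1, a ternary complex factor, was at 14.6 and 15.2 FPKM at 4% pO2 and 10.9 and 10.6 FPKM at 1% pO2, against 10.2 and 10.2 FPKM in normoxia. Transcript levels say nothing of where MRTF-A lies in the cell.

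Targets of MRTF and serum response factor were followed next. Of 24 genes, limma called 6 higher at 4% against 20% pO2, near the 27.5% of all genes, and 12 lower, above the 22.7% of all genes. At 1% against 20% pO2 it called 10 higher, above the 25% of all genes, and 4 lower, below the 21.9% of all genes. At 4% pO2, 4 were 2-fold lower in both pairs, beside 2.11% of all genes, and 0 were 2-fold higher. The 4 were Cyr61 and Ctgf, which encode secreted matricellular proteins, Fhl1, a LIM-domain protein of muscle, and Zyx, encoding the focal adhesion protein zyxin. Cyr61 was at 34.4 FPKM under PT2385 and 35.6 under vehicle at 4% pO2 and at 77.6 and 81.3 FPKM at 1% pO2, against 131.5 and 135.1 FPKM in normoxia. Ctgf was at 2.09 and 2.85 FPKM at 4% pO2 and 7.63 and 9.06 FPKM at 1% pO2, against 9.74 and 10.03 FPKM in normoxia. Fhl1 was at 1.03 and 1.52 FPKM at 4% pO2 and 7.67 and 8.51 FPKM at 1% pO2, against 7.98 and 6.63 FPKM in normoxia. Zyx was at 289.9 and 266.3 FPKM at 4% pO2 and 340.6 and 333.7 FPKM at 1% pO2, against 598.1 and 539.6 FPKM in normoxia. The 4 were singled out as lower at 4% than at 20% pO2. Their low values there are therefore no separate likeness to Acta2 and Tagln. The 6 called higher at 4% pO2 were Cap1, Fhl2, Itga5, Myh9, Pdlim7 and Vcl, with estimates from 0.21 to 0.90. The list as a whole did not move one way, with median differences of −0.15 and −0.11 at 4% pO2 and 0.06 and 0.14 at 1% pO2, beside 0.00 to 0.02 over all genes.

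Of the 28 other actin-binding and contractile genes expressed by smooth muscle, 22 were tested. Limma called 7 higher and 11 lower at 4% against 20% pO2 and 10 higher and 5 lower at 1%. The 7 higher at 4% and the 5 lower at 1% are near the shares of all genes, whereas the 11 lower at 4% and the 10 higher at 1% are above them. This list shares genes with the preceding one. Cnn3, encoding the non-muscle calponin that made up 64.0% to 71.8% of summed calponin FPKM, was at 222 FPKM under both treatments at 4% pO2 and at 249.7 and 264.8 FPKM at 1% pO2, against 369 and 410 FPKM in normoxia. Smtn, encoding smoothelin, was at 52.9 and 50.6 FPKM at 4% pO2 and 52.7 in both 1% libraries, against 29.2 and 27.1 FPKM in normoxia. Synpo2, encoding an actin-bundling protein, was at 20.2 and 23.0 FPKM at 4% pO2 and 26.3 and 25.9 FPKM at 1% pO2, against 10.1 and 10.9 FPKM in normoxia. Genes of this list were thus found on either side.

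Immediate early genes driven by ternary complex factors were called 5 higher and 1 lower of 10 at 4% against 20% pO2 and 6 higher and 1 lower at 1%. Fosl1, an AP-1 subunit, was at 239 and 218 FPKM at 4% pO2 and 225 and 208 FPKM at 1% pO2, against 106 and 86.8 FPKM in normoxia. Fos was at 3.93 and 4.61 FPKM at 4% pO2 and 8.48 and 7.60 FPKM at 1% pO2, against 9.73 and 10.2 FPKM in normoxia. Genes of the TGF-β pathway, which induces Acta2 and Tagln in many cells, were called 5 higher and 0 lower of 9 at 4% against 20% pO2 and 2 higher and 2 lower at 1%. Smad3, a transducer of the signal, was at 21.9 and 22.4 FPKM at 4% pO2 and 14.0 and 13.5 FPKM at 1% pO2, against 10.1 and 11.5 FPKM in normoxia. Smad7, the inhibitory member, was at 29.1 and 28.9 FPKM at 4% pO2 and 51.9 and 50.7 FPKM at 1% pO2, against 22.2 and 20.6 FPKM in normoxia. Of the cytoplasmic actins and other tropomyosins, Actb, Actg1 and Tpm4 were called lower and Tpm3 higher at 4% against 20% pO2, with Actg1 the farthest from 0 in the vehicle pair, at −0.24.

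**Figure D5:**
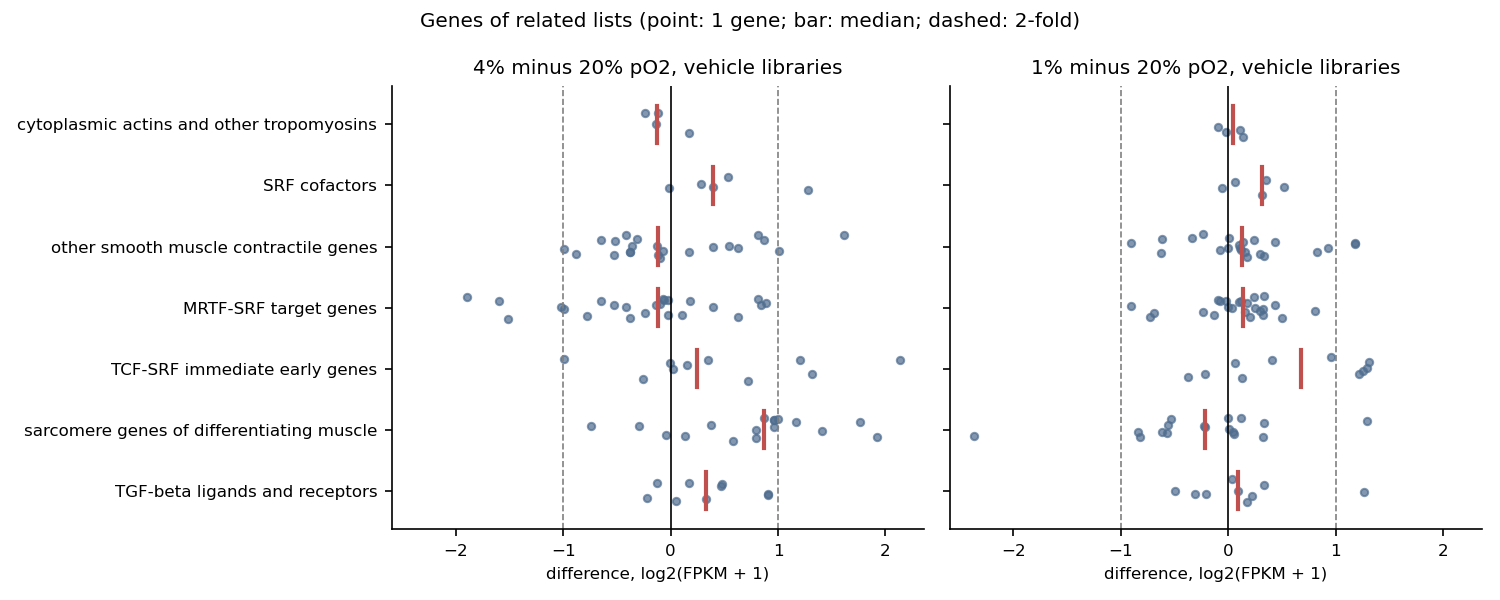
Differences in log2(FPKM + 1) between vehicle libraries, 4% minus 20% pO2 (left) and 1% minus 20% pO2 (right), with 1 point per tested gene of each list, a red bar at the list's median and dashed lines at 2-fold. The muscle differentiation genes, labelled sarcomere genes of differentiating muscle, lie mostly right of 0 at 4% pO2, with a median of 0.87. That list also holds Myog and Mymk. The MRTF-SRF targets lie on both sides, with a median of −0.11.

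For Acta2, Tagln, Acta1 and Cnn1, the genes with the most similar profile were ranked by the distance between log2(FPKM + 1) profiles over the 6 libraries, each centred on its own mean, among protein-coding genes with a mean of at least 10 FPKM (6776 or 6777 candidates). For Acta2 they were Srpx2 (distance 0.389), Foxc2 (0.465), Ccl2 (0.604), Iqsec3 (0.652) and Tspan12 (0.657), beside a distance of 2.37 between Acta2 and a flat profile. Foxc2, a forkhead transcription factor, was at 8.75 and 9.34 FPKM at 4% pO2 and 17.6 and 21.6 FPKM at 1% pO2, against 45.3 and 45.9 FPKM in normoxia. For Tagln they were Slc29a1 (0.318), Cyr61 (0.431), Igfbp7 (0.449), Ptgs2 (0.453) and Myo1d (0.481), so that Cyr61 appeared both here and among the MRTF targets. For Acta1 they were Taf9 (0.584), Synj2 (0.623), Fam168a (0.669), Stard4 (0.693) and Srebf2 (0.699). Srebf2, the regulator of cholesterol synthesis genes, was at 168.4 and 177.2 FPKM at 4% pO2 and 63.1 and 61.4 FPKM at 1% pO2, against 61.7 and 61.1 FPKM in normoxia. For Cnn1, whose profile was nearly flat on this scale (0.363), they were Fbrs, Tbca, Mfsd5, Aaas and Sphk2, at distances between 0.0519 and 0.0860. Since the profiles are over 6 libraries with 3 oxygen levels, a small distance mostly shows the same order of those levels.

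On GRCm38, as annotated by GENCODE M21, the genes are spread over 8 chromosomes. Acta1 lies on chromosome 8 from 123891769 to 123894751, Actc1 on chromosome 2 from 114047282 to 114053548, Acta2 on chromosome 19 from 34241090 to 34255590 and Actg2 on chromosome 6 from 83512905 to 83536265. Tagln (45929619 to 45936058), Cnn1 (22099216 to 22109630) and Tpm1 (67022590 to 67049406) are all on chromosome 9. Myh11 lies on chromosome 16 from 14194535 to 14291372, Tpm2 on chromosome 4 from 43514711 to 43523765 and Srf on chromosome 17 from 46548329 to 46556175. Cnn1 is on the plus strand and the other genes are on the minus strand.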

How the data were processed

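RNA of mouse primary myoblasts was sequenced by the study, 1 pooled library for each of 6 conditions. The authors deposited a table with a single value for each gene in each library, inferred from its tools and values to be FPKM, as the unit is not named. The submitters' notes list HISAT2 2.1.0, SAMtools 1.3.1, Cufflinks and Cuffdiff 2.2.1 with build GRCm38, and the supplementary methods name TopHat2. Read length and counts per gene were not given in the sources used here. How reads shared by paralogs were assigned was not stated either.

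The table was used as deposited. Groups came from the sample labels. Genes with a mean of at least 1 FPKM were kept, and log2(FPKM + 1) was used for differences. Limma 3.58.1 (R 4.3.3) was fitted over all 6 libraries with oxygen level and treatment as terms and a trended prior, with Benjamini-Hochberg adjustment over all genes, and was tested on simulated data. With 1 library per condition, p-values rest on 2 residual degrees of freedom and do not cover variation between cultures. Fragment numbers were estimated from the steps between values of single-transcript genes seen in 1 library only. Of those values, 92.6% to 97.0% per library came within 0.1 of a whole number. Intervals of fragment ratios are exact binomial (95%) and cover counting error only. Gene IDs were matched to GENCODE M21 (54719 of 54834), and promoters are from RefSeq (GRCm38.p6). All 10 genes are named. From each list, up to 4 genes are named, those with the largest average hypoxic difference among those averaging 5 FPKM or more. Marker genes, Myog and the remaining genes singled out were chosen after their values were seen. The genes and lists were chosen with earlier results of these data known. Alternatives were another pseudocount, other filters, 2 rescalings, no variance trend, no second term, a 1.5-fold threshold and leaving out each library. Added after the data were seen was the shortest transcript for the fragments of Actg2 and, without intervals, of Cnn1.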

Additional observations from a re-analysis of the deposited data

Results flagged for a closer look

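Acta1 differed in sign between the treatments for 1% against 20% pO2, with 0.41 in the PT2385 pair and −0.045 in the vehicle pair on the log2(FPKM + 1) scale. Acta1 also differed in sign between oxygen levels for PT2385 against vehicle, with −0.41 at 20% pO2, −0.91 at 4% pO2 and 0.049 at 1% pO2. Tagln did so too, with 0.17 at 20% pO2, 0.024 at 4% pO2 and −0.40 at 1% pO2. Each value compares 1 library with 1 other, and the difference between the pairs was not tested.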

How the results depend on the processing

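No paired analysis was possible because each condition is 1 library and the labels carry no replicate numbers to block on. Libraries were matched by oxygen level and treatment, which are both terms of the fit. Each library was left out in turn. All genes called then numbered 3438 to 5309 for 4% against 20% pO2 (6007 with all libraries), 3053 to 5612 for 1% against 20% pO2 (5615) and 2304 to 4097 for 1% against 4% pO2 (5140). For PT2385 they numbered 0 to 5 (0), and 1 without the variance trend. Genes called among the 7 numbered 3 to 6 for 1% against 4% pO2 (7), with 3 called without the 4% vehicle library and 4 without either 1% library. The direction turned in estimates that had not passed: Actc1 for 4% against 20% pO2 ranged from −0.065 (without the 4% vehicle library) to 0.46, Acta1 for 1% against 20% pO2 from −0.17 (without the 1% PT2385 library) to 0.54, and Tagln for PT2385 from −0.19 to 0.10 (without either 1% library). A 1.5-fold threshold gave 2 genes past the fold at 1% against 20% pO2 (1 at 2-fold) and 4 at 1% against 4% pO2 (1), and a pseudocount of 0.1 gave 2 there. Acta2, Tagln, Tpm2 and Acta1 kept their direction and call for 4% against 20% pO2 under every alternative run. Rescaling moved the median of all genes by under 0.1. Depth limits Actg2, Cnn1 and Myh11, and the missing replicates limit all others.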
